A study of Arabidopsis thaliana with 8 samples.

Results

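Binding of ENAP1 was examined at 6 ethylene response factor (ERF) genes of defence and stress, ERF1 (AT3G23240), ERF2 (AT5G47220), ERF5 (AT5G47230), ERF6 (AT4G17490), ERF104 (AT5G61600) and ERF105 (AT5G51190), chosen by locus from 27444 protein-coding genes on chromosomes 1 to 5. A bound region was counted for a gene when its summit, the base with the highest ChIP signal, lay inside the gene or up to 1000 bp outside either end. By this rule 2 of the 3293 regions listed after ethylene and 3 of the 4526 regions listed in air belonged to the 6 genes.

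The data are chromatin immunoprecipitation and sequencing (ChIP-seq) of ENAP1, which is a nuclear partner of EIN2 and of histones, recovered through an antibody against green fluorescent protein. All 4 groups were whole Col-0 seedlings with ein3 eil1 mutations, dark-grown for 3 days at 24 °C and then gassed for 4 h. The groups were ethylene ChIP, ethylene input, air ChIP and air input, with 2 samples each, and the ethylene dose was 10 ppm in hydrocarbon-free air. The controls carried the mutations as well, so every value comes from seedlings without EIN3 and EIL1, the transcription factors at the end of the ethylene pathway. The sources used here do not give the promoter that drives the tagged ENAP1. The authors deposited 1 joint peak list per treatment, with no value per sample, so no difference between treatments could be tested, and a gene without a region was not shown to be unbound.

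ERF proteins carry a plant-specific DNA-binding domain, and many of them recognise the GCC box in promoters of defence genes. The 6 members belong to group IX of the family, whose proteins are known as transcriptional activators and are induced by ethylene, jasmonate, pathogens or abiotic stress. ERF1 is a direct target of EIN3, ERF6 and ERF104 are substrates of stress-activated MAP kinases, ERF2 and ERF5 act in pathogen responses, and ERF105, which the gene table used here lists by its locus name with ERF105 as a synonym, is known for its part in freezing tolerance.

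ENAP1 regions were found at ERF104 and ERF5 after ethylene and at ERF104, ERF5 and ERF6 in air, while ERF1, ERF2 and ERF105 had none in either list. All 5 regions lay wholly inside the gene; a summit inside the gene was found in 9.28% of all protein-coding genes after ethylene and in 12.2% in air. ERF104 and ERF6 ranked high in the air list, and the ethylene regions at ERF104 and ERF5 were among the lowest of their list by fold enrichment. The count of 2 of 6 genes after ethylene stands beside 16.5% of all protein-coding genes under the same rule, and the count of 3 of 6 in air beside 21.8%. The 2 genes present in both lists stand beside 13.8%, and the 1 gene in air only beside 7.99%. Among the 3322 protein-coding genes as long as the members, from 965 to 1389 bp, the shares were 11.0% after ethylene and 13.9% in air. Both ethylene regions lay below the median −log10 q of their list, so with that stricter threshold 0 of 6 genes counted after ethylene, beside 8.66% of all protein-coding genes, and 3 of 6 in air, beside 11.8%. With 6 genes picked by hand these counts describe the members and no more.

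**Figure D1:**
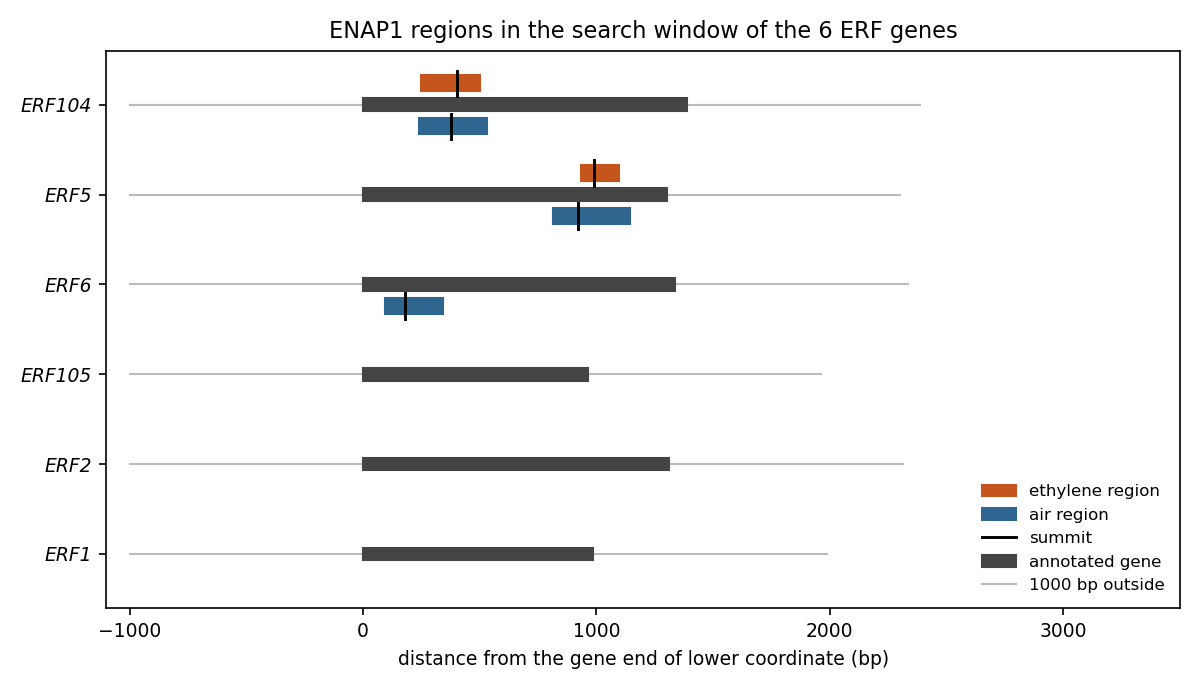
Position of ENAP1 regions along the 6 ERF genes, with distance in bp from the gene end of lower coordinate on the horizontal axis. Dark bars are annotated genes, grey lines reach 1000 bp outside, coloured boxes are regions (ethylene above the gene, air below it) and black ticks are summits. The regions at ERF104 and ERF5 overlap between the lists, with summits 29 bp and 70 bp apart, and ERF6 has an air region only.

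ERF104 encodes a transcription factor that is released from MAP kinase MPK6 during the response to bacterial flagellin. After ethylene its region spanned chr5:24766594-24766845 (TAIR10), with the summit 404 bp inside the nearer gene end, a fold enrichment of 2.07 (95% counting interval 1.82 to 2.34) and a −log10 p of 15.3. In air the region spanned chr5:24766583-24766877, with the summit 375 bp inside the same end, a fold enrichment of 8.15 (6.56 to 10.0) and a −log10 p of 52.3. Fold enrichment here is the authors' ratio, at the summit, of fragments piled up in the ChIP to those of the local background, and the intervals cover only the counting error of the ChIP pile-up. The ethylene region ranked 1687 of 3293 by −log10 p and 2982 by fold enrichment, and the air region 374 of 4526 and 548. It was thus in the upper part of the air list on both measures, and in the ethylene list near the middle by p and close to the bottom by fold enrichment.

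ERF5 encodes a factor that acts in immunity and, with ERF6, in the growth response to osmotic stress. The ethylene region was short, 165 bp (chr5:19180814-19180978), with the summit 310 bp inside the nearer gene end, a fold enrichment of 1.71 (1.499 to 1.95) and a −log10 p of 8.67. The air region was 332 bp wide (chr5:19180694-19181025), with the summit 380 bp inside the same end, a fold enrichment of 4.42 (3.45 to 5.58) and a −log10 p of 24.4. In the ethylene list it ranked 3212 by −log10 p and 3283 of 3293 by fold enrichment, a few places above the end of the list. In the air list it ranked 1612 and 3101 of 4526. The air summit also fell within the window of AT5G47229, a protein-coding gene of 156 bp, from which it was 953 bp away. The ethylene summit was 1023 bp from that gene and so just outside its window.

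ERF6, whose protein is phosphorylated by MPK3 and MPK6, had a region in the air list only. It spanned chr4:9752918-9753165, with the summit 179 bp inside the nearer gene end, a fold enrichment of 6.03 (4.88 to 7.37) and a −log10 p of 42.9. The region ranked 592 of 4526 by −log10 p and 1374 by fold enrichment. Of the 201 other air regions within 100 ranks of it by −log10 p, 190 (94.5%) overlapped an ethylene region. ERF6 was therefore among the few air regions near its rank by −log10 p without an ethylene counterpart. Over the whole air list 58.7% of regions overlapped an ethylene region. Around ERF104 in the same list the share was 94.5%, with 188 of 199 regions, and around ERF5 it was 73.5%. The ethylene summits nearest to ERF6 lay 3907 bp outside one end, in AT4G17483, and 5952 bp outside the other, in the gene of ERF1A (AT4G17500, listed as ERF-1).

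Peak caller values allowed the pile-up and the local background at each summit to be solved. At ERF104 the ChIP pile-up was 148 after ethylene, from 246 fragments scaled by the peak caller, over a background of 71.0, and in air it was 89.0 over a background of 10.0. At ERF5 it was 136 over 79.0 after ethylene, from 226 fragments, and 69.0 over 14.8 in air. At ERF6 the air pile-up was 93.0 over 14.6. Pile-ups of different lists are on different scales, so the background is set here against the lowest level that the peak caller used in each list, which was 15.1 after ethylene and 3.94 in air.

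Local background at these genes was high within both lists. After ethylene it was 4.69 times the floor at ERF104 and 5.22 times at ERF5, above 96.1% and 98.1% of the regions of the list, whose median was 1.85 times. In air it was 2.55 times at ERF104, 3.76 times at ERF5 and 3.70 times at ERF6, above 63.3%, 86.9% and 86.8% of regions, with a list median of 2.06 times. The rank by fold enrichment was lower than the rank by −log10 p in all 5 regions, and the part of the background in the fold enrichment was not tested. Without regions at 5 or more times the floor, an alternative chosen after seeing the data, the ethylene count was 1 of 6 (ERF104), beside 16.1% of all protein-coding genes, and the air count 3 of 6, beside 21.1%.

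**Figure D2:**
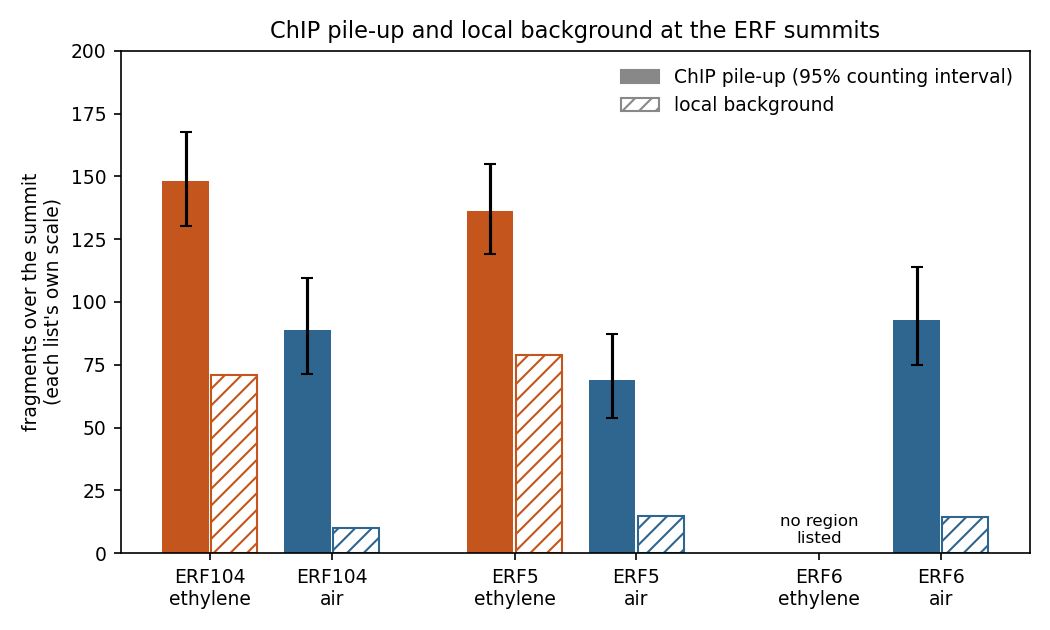
ChIP pile-up (filled bars, with 95% counting intervals) and local background (hatched bars) at the summits of the ERF104, ERF5 and ERF6 regions, in fragments on each list's own scale. After ethylene the background bars reach 71.0 and 79.0, and in air they stay between 10.0 and 14.8. No ethylene region was listed at ERF6.

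**Figure D3:**
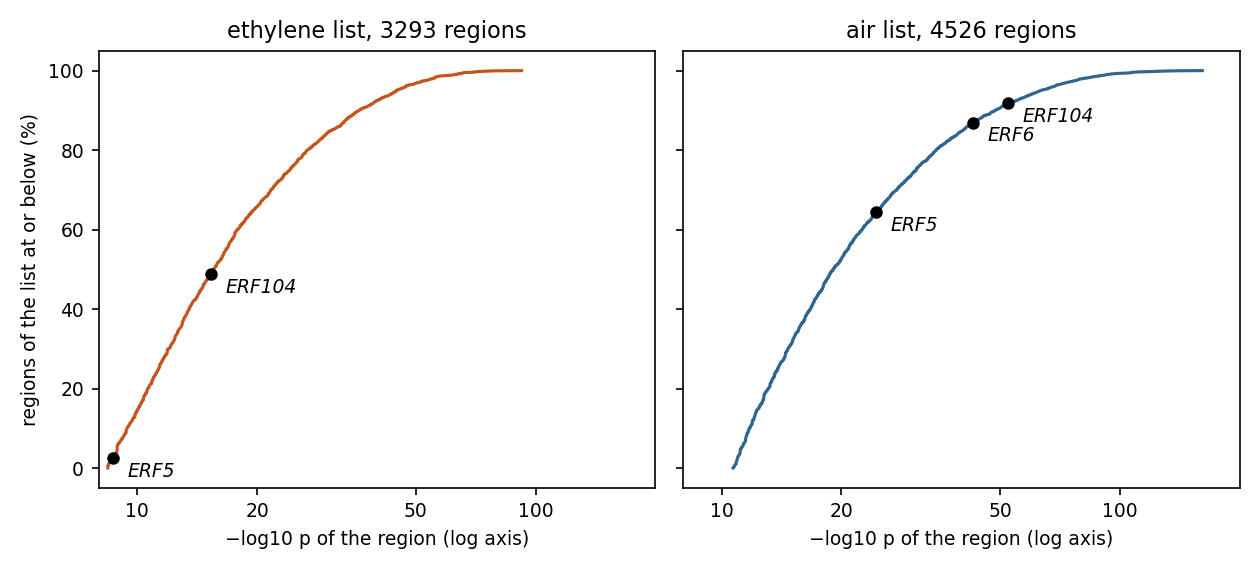
Share of regions at or below a given −log10 p in the ethylene list (left) and the air list (right), with the ERF regions as black points. ERF104 and ERF6 sit above 91.7% and 86.9% of the air list, and ERF5 sits above 2.46% of the ethylene list.

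The regions at ERF104 and ERF5 were also set against all regions that paired one to one between the lists, 2618 in number. For ERF104, 10.96% of pairs had a lower fold enrichment after ethylene and 79.7% in air. For ERF5, 0.344% of pairs were lower after ethylene and 15.9% in air. By −log10 p, the pairs below ERF104 made up 40.1% after ethylene and 86.4% in air, and those below ERF5 1.64% and 47.2%. Both genes stood lower among the ethylene values of the pairs than among the air values, by either measure. Fold enrichment was lower after ethylene in most pairs, each list being on its own scale, and the median ratio of the ethylene to the air value was 0.492 (interquartile range 0.394 to 0.585). The ratio was 0.254 at ERF104, with 2.06% of pairs below it, and 0.388 at ERF5, with 23.7% of pairs below it. These are positions within single joint lists, with no replicate error and no test.

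**Figure D4:**
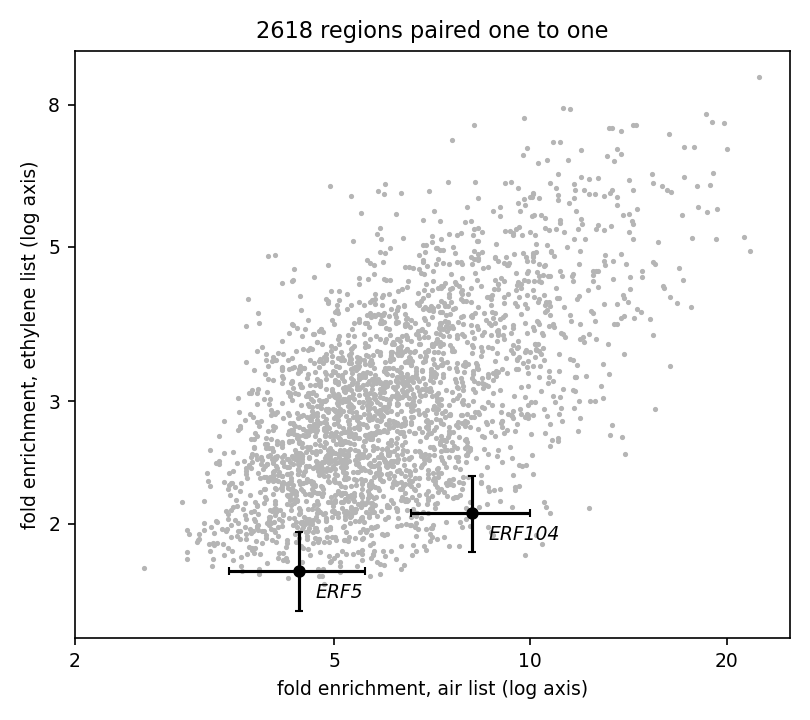
Fold enrichment of the 2618 paired regions, air list on the horizontal and ethylene list on the vertical axis, both log axes. Grey points are single pairs, and black points with bars are ERF104 and ERF5 with 95% counting intervals. ERF104 lies at the lower edge of the cloud, at 8.15 in air and 2.07 after ethylene.

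The ERF104 summits of the 2 lists were 29 bp apart and the ERF5 summits 70 bp, while the median over all pairs was 16.0 bp (interquartile range 7 to 29). The shift at ERF5 was larger than in 96.9% of pairs, and at ERF104 larger than in 74.2%. The whole ethylene region at both genes lay within the air region, covering 85.4% of it at ERF104 and 49.7% at ERF5.

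The summits at the members were deeper inside the gene than most. The median depth of summits inside protein-coding genes was 128 bp after ethylene and 125 bp in air, measured to the nearer gene end. Summits at least as deep as that of ERF104 made up 10.7% of them after ethylene and 14.8% in air. For ERF5 the shares were 16.8% and 14.4%, and for ERF6 36.2% in air. Measured from the end of lower coordinate, the summits stood at 29.1% and 27.0% of the length of ERF104, after ethylene and in air, at 76.2% and 70.8% of ERF5, and at 13.4% of ERF6 in air. The gene table used gives no strand, so which of these ends is the transcription start was not determined.

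ERF105, ERF2 and ERF1 had no summit within reach in either list. ERF105, 965 bp long, overlaps another annotated gene, AT5G51180. The summits nearest to ERF105 were 5183 bp away after ethylene, in AT5G51170, and 3344 bp away in air, in AT5G51180. ERF2 lies on chromosome 5 close to ERF5, whose summits were 7916 bp (ethylene) and 7846 bp (air) beyond the end of ERF2. On its other side the nearest summits were 4663 and 4696 bp away, in RAB1A. ERF1 stood in the emptiest surroundings, with the nearest summit 15187 bp away after ethylene and 15217 bp in air, both in AT3G23255. The ERF genes ESE1 and TDR1, which neighbour ERF1, had no region either.

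No background value exists for a gene without a region, so the smallest fold enrichment that could have been listed was worked out for assumed backgrounds. At the floor of the background, the lowest −log10 p of each list (8.43 after ethylene, 10.7 in air) corresponds to a fold enrichment of 2.75 after ethylene and 4.86 in air. At the median background it corresponds to 2.26 and 3.72. At the background multiple of the air region of ERF6, 1.84 would reach it after ethylene. Regions over a higher background were listed at lower fold enrichments, down to 1.64 after ethylene and 1.67 in air over the whole lists. The limit that applied at ERF1, ERF2, ERF105 and, after ethylene, ERF6 is therefore not known, since neither their background nor the listing rule is.

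Beyond the 6 members, group IX holds 11 other ERF genes, and ERF1A alone of these had a region, in both lists. ERF1A encodes a GCC-box binding activator closely related to ERF2, and its gene is the next protein-coding gene on one side of ERF6, 5041 bp away, while AT4G17486 lies 1019 bp away on the other side. Its region after ethylene (chr4:9760049-9760203) had a fold enrichment of 2.102 and rank 1850 by −log10 p, and its region in air (chr4:9760021-9760219) 5.67 and rank 611. The summits were 278 and 264 bp inside the gene, and the window of AT4G02985, a noncoding RNA gene, shared them. Background at ERF1A was 4.16 times the floor after ethylene and 4.13 times in air. In all, 3 of 17 group IX genes (17.6%) had a region after ethylene and 4 of 17 (23.5%) in air, close to the 16.5% and 21.8% of all genes. Group IX genes are short, from 396 to 1389 bp. Among all protein-coding genes of the members' length the shares were lower, 11.0% after ethylene and 13.9% in air. By subgroup, ERF5, ERF6, ERF104 and ERF105 are among the 6 genes of IXb, which had 2 after ethylene and 3 in air. The 3 genes of IXa had 1 in each list, and the 8 genes of IXc, with ERF1 and ORA59, had 0 in both. The sources used here do not give how reads matching more than 1 of these related genes were treated.

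Among 9 genes that act upstream of these factors, 4 had a region after ethylene, beside 16.5% of all protein-coding genes, and 4 in air, beside 21.8%. MPK3 and MYC2 had one in both, beside 13.8%, and 2 genes in air only, beside 7.99%. At MPK3, a stress-activated MAP kinase gene, the fold enrichment was 2.03 after ethylene and 3.76 in air, with the summit 873 and 894 bp outside the gene and shared with the windows of AT3G45638 and AT3G45645. At MYC2, which encodes a master regulator of jasmonate responses, it was 1.74 after ethylene and 3.60 in air, with the summits 610 and 572 bp inside and shared with the window of AT1G32630. MYC2 resembled ERF5 in a high background, 5.53 times the floor after ethylene and 4.40 times in air. EIN3 and EIL1, the genes mutated in all samples, had regions after ethylene only, with fold enrichments of 2.83 and 2.64. By −log10 p the EIN3 region ranked 1842 of 3293. The EIL1 region ranked 3095, with a −log10 p of 8.95 against a lowest listed value of 8.43. Of the 4519 protein-coding genes with a region after ethylene, 3788 had one in air as well. The kinase kinase genes MKK5 and MKK9 had regions in air only, with 5.85 and 5.59, and the MKK5 summit was shared with the window of AT3G21215. MPK6, MKK4 and MED25 had none.

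Of 10 genes downstream of the factors, 2 (20%) had a region after ethylene and 3 (30%) in air, beside 16.5% and 21.8% of all protein-coding genes. PR4, a pathogenesis-related gene responsive to ethylene, was in both lists, with a fold enrichment of 3.49 after ethylene and 6.11 in air and summits 295 and 298 bp outside the gene. GA2OX6, a gibberellin 2-oxidase gene activated by ERF6, had a summit in its window after ethylene only (2.32). An air region overlapped its 1000 bp window as well, with the summit outside, so this difference depends on the rule. MYB51, a regulator of indole glucosinolates, and ZAT10, a zinc finger stress gene, had regions in air only (5.33 and 5.06). The ZAT10 region ranked 3987 of 4526 by −log10 p, with the summit 882 bp outside the gene. With lists of equal length by −log10 p ZAT10 dropped out, while MYB51 stayed. Under the 1000 bp rule 13.8% of all protein-coding genes were in both lists and 7.99% in air only. Of the 4519 genes with a region after ethylene, 3788 were in both lists. The plant defensin genes PDF1.2A, PDF1.2B and PDF1.3, the chitinase gene CHIB, WRKY33 and ERF11 had none. Over upstream and downstream genes together, 6 of 19 (31.6%) had a region after ethylene and 7 of 19 (36.8%) in air, beside 16.5% and 21.8% of all protein-coding genes. At or above the median −log10 q these were 1 and 2 genes, beside 8.66% and 11.8% of all genes, and with summits inside the gene only 2 in air, beside 12.2%. These genes were picked for their known roles with earlier results of the same data in view, and 13 of the 19 are longer than the longest member, ERF104 (1389 bp).

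**Figure D5:**
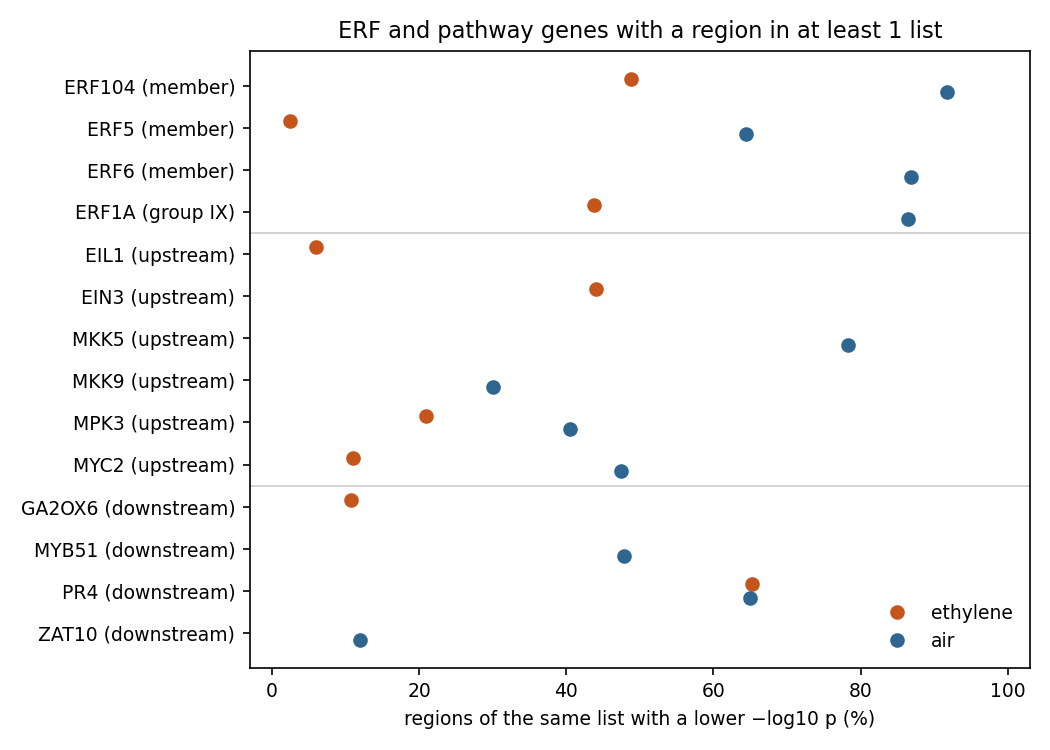
Position of each gene's region within its own list, as the share of regions with a lower −log10 p, for the 14 ERF and pathway genes with a region in at least 1 list. Orange points are the ethylene list and blue points the air list, and a missing point means that no summit was listed in the gene's window. ERF1A sits near ERF104 and ERF6 in the air list, and PR4 has similar positions in both lists.

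Genes with the most similar positions were looked up for the members present in both lists, by the distance between percentiles of −log10 p over the 2 lists and among 3782 other genes. Nearest to ERF104 were AT2G35900 (distance 0.656 percentage points), the histone acetyltransferase gene HAF1 (listed as HAF01, 0.826) and AT4G28000 (1.303). Nearest to ERF5 were ATMPK8 and its neighbour AT1G18160, with identical values and so the same distance of 1.94, and the clock gene PRR7 (1.96). The likeness is by −log10 p only. Fold enrichment at ATMPK8 was 2.48 after ethylene and 6.87 in air, against 1.71 and 4.42 at ERF5. With 2 lists such a likeness rests on 2 values per gene.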

How the data were processed

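ENAP1 ChIP-seq was made in 8 samples. For each treatment, 1 deposited peak list covers both ChIP samples, as the labels' descriptions show. Whether the samples of a group are separate cultures is not stated. Alignment was with BWA to TAIR10 and peak calling with MACS2 2.1.0.20150603, per the submitters' processing notes. The authors named the lists optimal, by a rule that the sources used here do not give. The deposited fold enrichment is a ratio of pile-up to local background with 1 added to both. The −log10 values deposited for p and q are the peak caller's, and the deposited score, 10 times −log10 p, was not used. Region positions are counted from 1.

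Gene names, lengths and ends came from the RefSeq table of TAIR10.1, which has no strand. As a check of its fit, 56.6% of ethylene and 54.7% of air summits were within 200 bp of an end of a gene holding them, against 21.3% to 23.2% after a shift of 200 bp either way. Pile-up and background were solved from fold enrichment and p. In 100% of regions the pile-up, divided by 0.602 in the ethylene list and unscaled in air, came out whole within 0.05. The solution was tested on simulated data. Intervals are exact Poisson intervals for the ChIP fragments, at the 95% level. Total reads per library, per-sample values and genome sequence were not used here. The members and gene lists were chosen with earlier results of these data known. The genes named are the members, genes sharing their summits, listed group IX and pathway genes with a region, and the 3 genes most alike. Alternatives were other windows, assignments, thresholds, list lengths, overlaps and background genes. Python 3.11.15 with SciPy 1.17.1 was used.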

Additional observations from a re-analysis of the deposited data

How the results depend on the processing

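No paired analysis was possible because the samples of a treatment enter 1 list together, and for the same reason no sample could be left out. The air count of 3 of 6 members kept its value within 1.5 times under all 8 alternatives, and the ethylene count and the count in both lists under 6 of 8. The members' summits all lay inside their genes. Where a list held none for a member, the nearest summit was 3344 bp or more from the gene. Settings of window and assignment therefore could not change these counts and do not show how firm they are. With regions at or above the median −log10 q, 0 members remained after ethylene and 0 in both lists, 0 group IX genes after ethylene and 0 in both, and 1 pathway gene after ethylene, 2 in air and 1 in both. With regions removed whose background was at least 5 times the floor, 1 member was left after ethylene and 1 in both lists. With 2000 bp windows, group IX had 5 genes after ethylene, beside 20.9% of all protein-coding genes, and 5 in both lists. The genes added were AT4G18450 and ERF107. ERF107 lies 832 bp from ERF104 and was counted through the summits inside ERF104, so the same regions count for both genes. The pathway genes numbered 11 in air, beside 27.2%, and 6 in both. The share of all genes in both lists is given only for the 1000 bp rule (13.8%), so the other counts in both lists have no such share beside them. With summits inside genes only, the pathway genes numbered 2 in air and 1 in both. When at least 50% of each region had to overlap, 1 member region of each list was shared instead of 2, since ERF5 dropped out. By an overlap of at least 1 bp, 80.6% of all ethylene regions and 58.7% of all air regions were shared. The share over all regions is not given for the 50% rule.

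The share of all protein-coding genes moved with the rule. In the ethylene list it was 14.2% with 500 bp, 20.9% with 2000 bp, 9.28% inside genes only, 11.2% by nearest gene, 8.66% above the median q and 11.0% among genes of the members' length. In the air list the same settings gave 19%, 27.2%, 12.2%, 15.1%, 11.8% and 13.9%, and it was 22.3% by region overlap, 16.5% with lists of equal length and 21.1% without high background. The cause was not tested. Neither list gives a depth per library, which limits all counts.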
